A study of Homo sapiens with 4 samples.

Results

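HSP90 is an abundant ATP-driven chaperone that completes the folding of kinases, steroid receptors and other client proteins. Human cells carry 4 paralogs: the cytosolic forms HSP90AA1 and HSP90AB1, the endoplasmic reticulum form HSP90B1 (GRP94) and the mitochondrial form TRAP1. The cytosolic forms work with cochaperones that deliver clients, hold the closed state or speed up ATP hydrolysis. HSP90AA1 is the form that heat shock factor 1 induces under proteotoxic stress, whereas HSP90AB1 is made steadily. The genes described here are these 4 paralogs and 6 cochaperones, AHSA1, PTGES3, STIP1, CDC37, FKBP4 and FKBP5. They are the 10 of 20263 rows of the count table whose Ensembl identifiers map to those symbols, and all 10 were among the 13667 genes tested. The rule itself names genes, but the set was selected on fold changes and adjusted p-values of this same comparison, which were known when it was proposed. Those values are therefore given as a description of the members and not as an independent test.

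MDA-MB-231 is an established breast cancer line of the triple-negative type, which lacks oestrogen and progesterone receptors and HER2 amplification. Cells received Rib_CA, a derivative of the CDK4/6 inhibitor ribociclib according to the series title, or the vehicle DMSO, for 24 h, with 2 libraries per group; the dose is not given in the sources used here. The labels describe 1 cell line and do not say whether the 2 libraries of a group came from separate cultures. The p-values set the group difference against the spread between these libraries, moderated across genes. That spread may be only technical. The comparison asks which transcripts the compound changed.

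The libraries held 38865103 and 37772266 counts in Rib_CA and 34774542 and 37754168 counts in DMSO. Mitochondrially encoded genes took 5.78% and 3.13% of counts in Rib_CA, against 8.68% and 21.7% in DMSO. The 5 markers of MDA-MB-231 (VIM, CD44, EGFR, AXL and FOSL1) summed to 6726 to 7578 CPM (counts scaled to library size with TMM factors) in Rib_CA and to 7275 to 8998 CPM in DMSO. The 7 luminal markers summed to 74.2 to 113 CPM in Rib_CA and to 106 CPM in each DMSO library, most of it ERBB2, while CDH1 had at most 3 counts in a library and ESR1 stayed under 1 CPM. The 4 leukocyte markers summed to at most 0.79 CPM in Rib_CA and 1.15 CPM in DMSO. The 5 fibroblast markers summed to 4.13 to 6.02 CPM in Rib_CA and to 7.87 to 8.35 CPM in DMSO, nearly all of it COL1A1, and the 3 endothelial markers to at most 1.09 CPM in Rib_CA and 1.47 CPM in DMSO.

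Upstream DNA differs between the paralogs, and the matched elements are shown because they are the textbook binding sites of the factors that induce HSP90 genes: HSF1, which binds inverted repeats of GAA (heat shock elements), and ATF6, which binds the endoplasmic reticulum stress element. The windows are from RefSeq promoters (GRCh38.p14, 250 bases before to 50 after a start site), read 5′ to 3′ on the gene's strand, with the fixed letters of the motif in capitals.
HSP90AA1: TTCcgGAAggTTCgggaggcTTCtgGAA
HSP90AB1 upstream element: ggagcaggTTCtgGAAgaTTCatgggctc
HSP90AB1 downstream element: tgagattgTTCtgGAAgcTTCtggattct
HSP90B1 upstream element: cctgaCCAATcggaaggagCCACGcttcg
HSP90B1 downstream element: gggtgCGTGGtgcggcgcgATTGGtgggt

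The HSP90AA1 window lies at chr14:102087105-102087132 on the minus strand, from 88 to 61 bases before a start site inside the annotated gene. It holds 3 units in alternating orientation, followed by a further pair of units. The HSP90AB1 windows lie at chr6:44247770-44247798 and chr6:44247823-44247851 on the plus strand and hold 1 such 3-unit element each. The 3-unit element, searched on both strands as alternating GAA and TTC with 2 bases between neighbours, was in 0.490% of 35116 promoters and in the promoters of 2 of the 9 genes that matched the table, HSP90AA1 and HSP90AB1. The shorter pairs GAANNTTC and TTCNNGAA, which lie within it, were in 6.77% and 7.74% of all promoters. Beyond HSP90AA1 and HSP90AB1, 1 TTCNNGAA lay 13 to 20 bases past a start site of STIP1. The HSP90B1 windows lie at chr12:103930211-103930239 and chr12:103930316-103930344 on the plus strand, the second element reading in the opposite orientation. Its motif, CCAAT and CCACG with 9 bases between them on either strand, was in 0.0769% of all promoters. The element bound by ATF4 with CEBP factors (TGATGNAAN, 3.61% of all promoters, both strands) and the glucocorticoid response element (AGAACA and TGTTCT with 3 bases between them, 1 promoter in all) had no match in these windows. Exact 3-unit elements were thus found only for the 2 cytosolic paralogs among the 9 genes searched. Imperfect or more distant elements were not searched, and FKBP4 had no entry among these promoters. Whether any of these elements bears on the transcripts described next was not tested.

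HSP90AA1, the inducible cytosolic paralog (chr14:102080738-102139699, minus strand), was the member with the largest difference. It lay at 651 and 287 CPM in Rib_CA 1 and 2, against 3779 and 2588 CPM in DMSO 1 and 2. Both Rib_CA libraries were below both DMSO libraries, and the lower DMSO library was 3.97-fold above the higher Rib_CA library. The replicates of Rib_CA themselves differed 2.27-fold and those of DMSO 1.46-fold. In edgeR's quasi-likelihood test over all genes HSP90AA1 fell by 2.76 on the log2 scale (SE 0.49, 95% interval -3.93 to -1.59; adjusted p = 0.0301), that is 6.79-fold lower, and only 0.490% of tested genes had a log2 fold change as low or lower. Its call held without any 1 of the 4 libraries, with folds from 4.89 to 11.4.

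HSP90AB1, the constitutive cytosolic paralog (chr6:44246166-44253888, plus strand), lay at 1340 and 1768 CPM in Rib_CA, against 2335 and 2088 CPM in DMSO. The groups did not overlap, but the lowest DMSO library was only 1.18-fold above the highest Rib_CA library, and the gene did not pass (log2 fold change -0.51 ± 0.32 SE, 95% interval -1.27 to 0.25; adjusted p = 0.341). The interval runs from a clear decrease to a small increase, so neither is shown.

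HSP90B1, which folds integrins and Toll-like receptors in the endoplasmic reticulum (chr12:103930107-103953645, plus strand), lay at 365 and 332 CPM in Rib_CA, against 1183 and 946 CPM in DMSO. These replicates were close in Rib_CA (1.10-fold apart) and the groups were well separated. HSP90B1 fell by 1.61 on the log2 scale (SE 0.28; adjusted p = 0.0298), 3.05-fold lower. The call was lost without DMSO 1 (adjusted p = 0.195) and without DMSO 2 (adjusted p = 0.0743), while the fold stayed between 2.72 and 3.40. TRAP1, the mitochondrial paralog (chr16:3651639-3717597, minus strand), lay at 145 and 72.6 CPM in Rib_CA, against 121 and 132 CPM in DMSO. The Rib_CA libraries lay on either side of both DMSO libraries, with a log2 fold change of -0.21 ± 0.36 SE (95% interval -1.08 to 0.65; adjusted p = 0.746) that was 0.20 without Rib_CA 2. TRAP1 shares 29.3% of its exonic bases with DNASE1 on the opposite strand, and whether the counting used strand is not given in the sources used here.

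**Figure D1:**
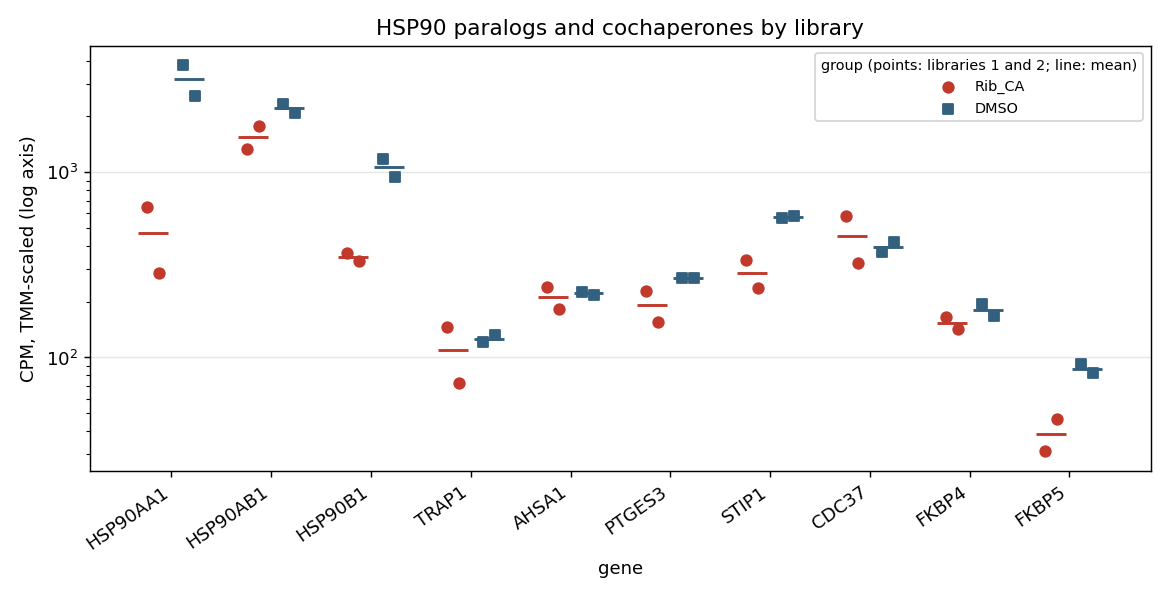
TMM-scaled CPM (log axis) of the 10 genes in each library, Rib_CA as circles left of DMSO as squares, with a line at each group's mean. HSP90AA1, HSP90B1, STIP1 and FKBP5 show a clear gap between the groups, while TRAP1, AHSA1 and CDC37 overlap.

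The paralogs therefore took different shares of HSP90 transcripts. Levels of different genes are set side by side per length, as CPM per kilobase of the longest annotated transcript. HSP90AA1 made up 21.3% and 9.24% of the summed per-length level of the 4 paralogs in Rib_CA, against 45.0% and 39.1% in DMSO. HSP90AB1 made up 57.6% and 74.8% in Rib_CA, against 36.5% and 41.4% in DMSO. HSP90AB1 was thus the leading paralog in both Rib_CA libraries, and HSP90AA1 and HSP90AB1 were close in DMSO by this length. With the mean length of coding transcripts HSP90AB1 still led in Rib_CA, but in DMSO HSP90AA1 held 50.1% and 44.5% against 23.9% and 27.7% for HSP90AB1. The ratio of HSP90AA1 to HSP90AB1, which no scaling between libraries can move, was 0.370 and 0.124 in Rib_CA, against 1.23 and 0.945 in DMSO. Its geometric mean was 5.04-fold lower in Rib_CA. An exact permutation test of its log2 value gave a two-sided p of 0.333, the smallest that 2 libraries against 2 can reach. No outcome could have passed, so that test decides nothing about the ratio. The 2 cytosolic paralogs together came to 687 and 743 CPM per kilobase in Rib_CA, against 1950 and 1518 in DMSO. HSP90B1 held 13.8% and 12.4% of the paralog sum in Rib_CA, against 16.3% and 16.5% in DMSO, and TRAP1 held 7.24% and 3.56% in Rib_CA, against 2.19% and 3.03% in DMSO.

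**Figure D2:**
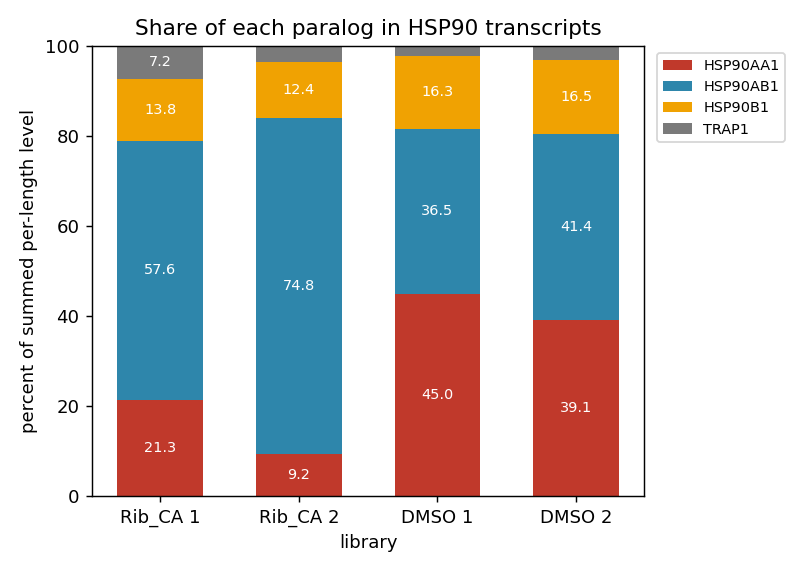
Share of each HSP90 paralog (percent of the summed per-length level, stacked to 100) in the Rib_CA and DMSO libraries. The HSP90AA1 share is 21.3% and 9.24% in Rib_CA, against 45.0% and 39.1% in DMSO.

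Of the client-delivery cochaperones, STIP1 (HOP), which bridges HSP70 and HSP90, lay at 334 and 238 CPM in Rib_CA, against 569 and 578 CPM in DMSO. Both Rib_CA libraries were lower, by 2.01-fold in the fit (95% interval of the log2 fold change -1.69 to -0.32), but the gene missed the threshold (adjusted p = 0.0815). CDC37, which loads kinases onto HSP90, lay at 584 and 322 CPM in Rib_CA, against 373 and 418 CPM in DMSO. Its Rib_CA libraries lay on either side of DMSO (log2 fold change 0.19 ± 0.35 SE, 95% interval -0.63 to 1.02; adjusted p = 0.759), and its sign was negative without Rib_CA 1 (-0.34).

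Among cochaperones of the ATPase cycle, AHSA1 (Aha1), the activator of HSP90's ATPase, lay at 240 and 182 CPM in Rib_CA, against 226 and 218 CPM in DMSO, with overlapping groups (log2 fold change -0.07 ± 0.27 SE, 95% interval -0.71 to 0.57; adjusted p = 0.895; 0.12 with total-count scaling). PTGES3 (p23), which stabilises the closed ATP-bound state, lay at 229 and 155 CPM in Rib_CA, against 268 CPM in each DMSO library. Both Rib_CA values were lower, but the difference did not pass (log2 fold change -0.48 ± 0.29 SE, 95% interval -1.17 to 0.21; adjusted p = 0.326).

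FKBP4 (FKBP52) and FKBP5 (FKBP51) are immunophilins that bind the steroid receptor complexes of HSP90; FKBP4 favours and FKBP5 restrains glucocorticoid receptor activity. FKBP4 lay at 166 and 142 CPM in Rib_CA, against 193 and 167 CPM in DMSO. The higher Rib_CA library nearly met the lower DMSO library, and the difference did not pass (log2 fold change -0.23 ± 0.26 SE; adjusted p = 0.608). FKBP5 lay at 31.1 and 46.5 CPM in Rib_CA, against 92.2 and 82.0 CPM in DMSO. These groups were separated, by 2.24-fold in the fit (log2 fold change -1.17 ± 0.30 SE, 95% interval -1.88 to -0.45), yet FKBP5 missed the threshold narrowly (adjusted p = 0.0653). FKBP5 passed in DESeq2 (adjusted p = 0.00415), as did STIP1 (adjusted p = 0.0115), where 18.7% of all genes tested passed. In edgeR without a filter on low counts FKBP5 passed narrowly (adjusted p = 0.0484). Both genes missed in limma-voom (adjusted p = 0.0641 for FKBP5 and 0.0777 for STIP1). Both also missed in edgeR with the replicate block (adjusted p = 0.0755 and 0.142). The direct comparison of FKBP4 with FKBP5 was not tested. In this RNA from whole cultures, fewer cells with a transcript and less of it per cell cannot be told apart.

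Over the 10 genes, 2 fell (HSP90AA1 and HSP90B1) and none rose. Among all genes tested, edgeR called 7.13%, with 5.11% lower and 2.01% higher. At an unadjusted p under 0.05, 4 of the 10 were lower and none higher, where 14.7% of all genes tested were lower and 13.7% higher. Neither DESeq2 nor limma-voom called any of the 10 higher, where they called 7.63% and 1.64% of all genes tested higher. Both Rib_CA libraries lay below both DMSO libraries for 7 of the 10, a state found in 28.4% of all genes tested, and for none did they lie above, a state found in 30.4%. The median log2 fold change of the 10 was -0.49, beside 0.03 for all genes tested. It was negative for 9 of 10, and for 8 of 10 with total-count scaling, which moves the median of all genes by 0.20 and turns AHSA1 positive. The lowest count behind any of these values was 1220, of FKBP5 in Rib_CA 1, for which counting error alone is 2.86%, so the spread between libraries and not depth set the precision.

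Base composition ran alongside these results. Genes called lower had a median transcript GC content of 40.3% and length of 6048 bases. Those called higher had 57.3% and 2198 bases, and all genes tested had 48.5% and 3646 bases. HSP90B1 (41.2% GC), FKBP5 (41.5%), PTGES3 (42.9%), HSP90AA1 (45.2%) and HSP90AB1 (48.1%) lay below that all-gene GC median. FKBP4 (51.1%), AHSA1 (51.7%), STIP1 (55.2%), TRAP1 (56.0%) and CDC37 (60.0%) lay above it. By length only FKBP5 (7384 bases) and FKBP4 (3732 bases) exceeded the all-gene median. The called HSP90AA1 (3510 bases) and HSP90B1 (3032 bases) were shorter than it. When each library was corrected for GC content and transcript length, edgeR called 0 of 13651 genes, with 3396 at an unadjusted p under 0.05. HSP90AA1 was then 5.82-fold lower (adjusted p = 0.0811), HSP90B1 2.25-fold lower (adjusted p = 0.0905) and STIP1 2.59-fold lower (adjusted p = 0.0803). FKBP5 was 1.40-fold lower (adjusted p = 0.235), less than before correction, and TRAP1 1.61-fold lower (adjusted p = 0.217). CDC37 turned to a log2 fold change of -0.49, so that all 10 were negative. Changes caused by the compound are removed with it wherever they follow GC content or length.

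**Figure D3:**
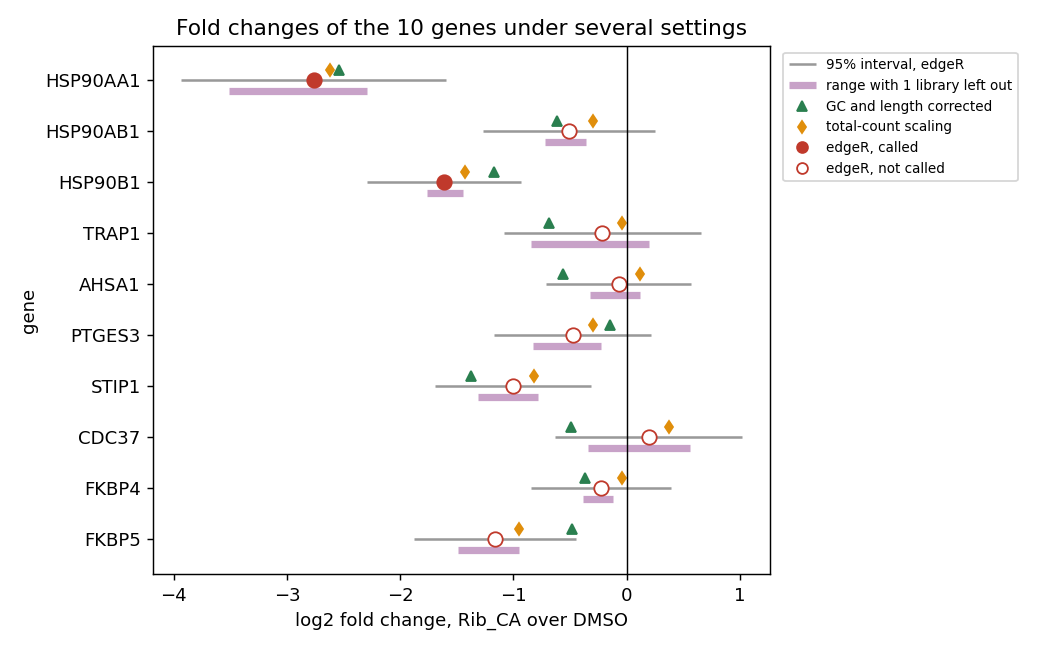
Log2 fold change (Rib_CA over DMSO) of the 10 genes in edgeR, with its 95% interval, beside the values after GC and length correction, with total-count scaling and the range with 1 library left out. HSP90AA1 stays below -2 in every setting drawn, HSP90B1 below -1, and the values of CDC37, AHSA1 and TRAP1 lie on both sides of 0 across settings.

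The order of the per-length levels also differed between the groups. In Rib_CA it ran HSP90AB1 (581 CPM per kilobase), CDC37 (281), AHSA1 (151), HSP90AA1 (134), HSP90B1 (115), STIP1 (104), PTGES3 (65.5), TRAP1 (47.2), FKBP4 (41.3) and FKBP5 (5.26). Neighbours whose libraries overlapped there were AHSA1 with HSP90AA1, HSP90AA1 with HSP90B1, HSP90B1 with STIP1, PTGES3 with TRAP1 and TRAP1 with FKBP4. In DMSO the order was HSP90AA1 (907), HSP90AB1 (827), HSP90B1 (351), CDC37 (246), STIP1 (209), AHSA1 (158), PTGES3 (91.1), TRAP1 (54.8), FKBP4 (48.3) and FKBP5 (11.8), and HSP90AA1 with HSP90AB1 were the only neighbours there whose libraries overlapped. Among 13651 genes ranked by this per-length level, HSP90AA1 stood at 371 in Rib_CA and at 29 in DMSO, whereas HSP90AB1 stood at 59 in Rib_CA and at 32 in DMSO. With the mean length of coding transcripts in place of the longest one, HSP90B1 took the third place in Rib_CA. In DMSO by that length HSP90AA1 lay wholly above HSP90AB1, and HSP90AB1 overlapped HSP90B1.

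Set against cytosolic HSP90 transcripts, which were lower in Rib_CA, several cochaperones took a larger proportion there. A transcript with no change at all would do the same. The ratios below therefore restate the lower HSP90 sum and are no test of the cochaperones. Per summed level of HSP90AA1 and HSP90AB1, AHSA1 stood at 0.249 and 0.175 in Rib_CA, against 0.0825 and 0.102 in DMSO. CDC37 stood at 0.529 and 0.269 in Rib_CA, against 0.119 and 0.171 in DMSO. FKBP4 stood at 0.0649 and 0.0511 in Rib_CA, against 0.0266 and 0.0295 in DMSO. These 3 ratios were higher in both Rib_CA libraries, as was that of PTGES3. STIP1, at 0.177 and 0.117 in Rib_CA and 0.106 and 0.139 in DMSO, overlapped, as did FKBP5. These are ratios of transcripts and say nothing of protein.

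Reads of near-identical copies could move some of these counts. GENCODE lists 4 pseudogenes of HSP90AA1, 5 of HSP90AB1, 2 of HSP90B1, 5 of PTGES3, 5 of FKBP4, 2 of CDC37 and 1 of STIP1, none of them a row of the count table. Exact windows of 50 bases were shared with other annotated transcripts for 17.5% of HSP90AA1, 18.8% of HSP90AB1, 7.44% of PTGES3 and 7.01% of HSP90B1, with annotated pseudogenes first among the transcripts sharing them. No window of any member occurred in another member, so HSP90AA1 and HSP90AB1 share no exact run of that length. How the authors treated reads that fit several places is not given in the sources used here.

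Around these genes, the HSP70 arm that hands clients to HSP90 was also lower in part. Of 14 genes tested 3 fell and none rose, where edgeR called 5.11% of all genes tested lower and 2.01% higher. The median log2 fold change was -0.79, beside 0.03 for all genes tested. These shares also stand beside the calls in the lists that follow. All the lists were chosen with earlier results of these data known, so their counts are descriptions. HSPA4L and HSPH1, both nucleotide exchange factors of HSP70, were 4.03-fold and 4.89-fold lower, and DNAJA1, a J-domain partner, was 3.17-fold lower. After the GC and length correction these folds were 1.96 for HSPA4L, 3.02 for HSPH1 and 2.59 for DNAJA1, and none passed. HSPA8, the constitutive HSP70, lay at 1367 and 1220 CPM in Rib_CA, against 3165 and 3290 CPM in DMSO. It just missed the threshold in edgeR (adjusted p = 0.0541). It also missed with total-count scaling (adjusted p = 0.0761), the replicate block (0.124) and the GC and length correction (0.0803). HSPA8 passed in DESeq2 and limma-voom. In edgeR it passed without mitochondrially encoded genes (adjusted p = 0.0450), without a filter on low counts (0.0429) and with a filter of 5 CPM (0.0451).

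Of 11 further heat shock genes and HSF factors tested, edgeR called none, with 1 at an unadjusted p under 0.05; DESeq2 called 1 and limma-voom none. Their median log2 fold change was 0.00, but -0.44 with the GC and length correction, -0.43 without Rib_CA 1 and -0.37 without Rib_CA 2. HSF1, the factor that drives stress-induced HSP90AA1, lay at 216 and 105 CPM in Rib_CA, against 121 and 169 CPM in DMSO, so its groups overlapped (log2 fold change 0.15; adjusted p = 0.844).

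Among 25 other HSP90 cochaperones and associated proteins tested, 2 rose and 2 fell, with a median of 0.10. CHORDC1, a cochaperone that binds the ATPase domain, was 4.67-fold lower, at 19.3 and 15.8 CPM in Rib_CA against 103 and 61.5 CPM in DMSO (adjusted p = 0.0285). RPAP3, which recruits HSP90 to the R2TP complex, was 3.35-fold lower (adjusted p = 0.0296). FLCN, the folliculin tumour suppressor and here an associated protein, was 2.48-fold higher (adjusted p = 0.0393). FKBP8, a membrane-bound immunophilin singled out after its values were seen, was 2.30-fold higher (adjusted p = 0.0432). FLCN, FKBP8 and DNAJA1 lost their calls when either DMSO library was left out, and CHORDC1, RPAP3 and HSPA4L without DMSO 1. RPAP3 also missed with total-count scaling (adjusted p = 0.0563), and FKBP8 with the replicate block. After the GC and length correction the folds were 2.76 for CHORDC1, 2.20 for RPAP3, 2.03 for FLCN and 1.42 for FKBP8, and none passed.

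Partners in the compartments of HSP90B1 and TRAP1 gave no call in edgeR. Beside the counts that follow, 28.4% of all genes tested had an unadjusted p under 0.05 and DESeq2 called 18.7%. Of 16 endoplasmic reticulum genes tested edgeR called none, with 3 higher and 1 lower at an unadjusted p under 0.05 and 1 called by DESeq2 and none by limma-voom. HSPA5 (BiP), which passes clients to HSP90B1, lay at 920 and 1503 CPM in Rib_CA, against 1077 and 936 CPM in DMSO (log2 fold change 0.27; adjusted p = 0.652). The difference between HSP90B1 and these genes was not tested as such. Of 10 mitochondrial partners of TRAP1 edgeR called none, with 2 higher and 1 lower at an unadjusted p under 0.05, 1 called by DESeq2 and none by limma-voom. HSPA9, the mitochondrial HSP70, lay at 324 and 344 CPM in Rib_CA, against 549 and 499 CPM in DMSO (log2 fold change -0.65; adjusted p = 0.155).

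Transcripts of 20 kinase clients showed no call in edgeR, with 1 higher and 4 lower at an unadjusted p under 0.05; DESeq2 called 5 and limma-voom none. Their median was -0.14, and a client's folding is not seen in its transcript. Beside the immunophilins, 1 of 11 steroid receptors and glucocorticoid receptor targets rose and none fell in edgeR. At an unadjusted p under 0.05, 4 were higher and 2 lower, and DESeq2 called 4. Their median was 0.83, and 0.14 to 0.85 with 1 library left out. All of those fits but the one without DMSO 1 tested 12 genes of this list, so the medians are over different sets. TSC22D3 (GILZ), a classical glucocorticoid target as FKBP5 is, lay at 28.4 and 38.0 CPM in Rib_CA, against 7.99 and 8.26 CPM in DMSO (4.09-fold higher; adjusted p = 0.0285), a call lost without either DMSO library and with the GC and length correction (3.18-fold; adjusted p = 0.0803). NR3C1, the glucocorticoid receptor, lay at 57.1 and 69.8 CPM in Rib_CA, against 111 and 88.0 CPM in DMSO (log2 fold change -0.65; adjusted p = 0.175).

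**Figure D4:**
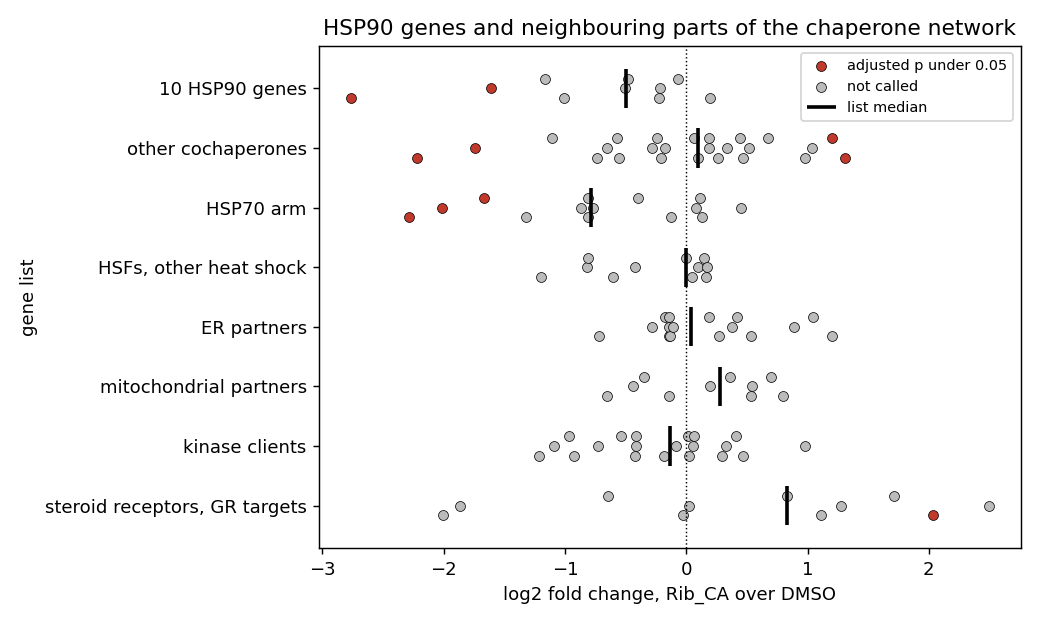
Log2 fold changes (Rib_CA over DMSO) of the 10 HSP90 genes and of 7 neighbouring lists, 1 point per tested gene, filled red where called in edgeR, with a bar at each list's median. The HSP90 genes (-0.49) and the HSP70 arm (-0.79) have the lowest medians, and the mitochondrial partners sit at 0.28.

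The profiles nearest to HSP90AA1 over the 4 libraries, by the root mean square distance of log2 CPM less each gene's mean among 4506 other genes averaging 50 CPM or more, were those of BBX (distance 0.12), TPR (0.12), ATAD2 (0.13), UTP20 (0.13) and BCLAF1 (0.14). TPR lay at 66.5 and 36.1 CPM in Rib_CA, against 461 and 322 CPM in DMSO. No chaperone was among these 5, and with 4 libraries many profiles lie close.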

How the data were processed

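Libraries of mRNA from MDA-MB-231 cells were prepared with a Hieff kit, per the labels' protocols. The deposited file holds raw counts per gene, not normalised by the authors, for 20263 human Ensembl genes in 4 libraries. GRCm38 and mm10, both mouse builds, stand in the submitters' processing notes although the identifiers are human. The aligner, the counter and any strand setting are not stated in these sources. Of the counts from 1 to 10, 67.7 to 70.7% were even, so both mates of a pair may have been counted, and counting errors are then understated. Libraries of a group differed by far more than counting noise (chi-square over degrees of freedom 265 in Rib_CA and 257 in DMSO).

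The test was edgeR 4.0.16 under R 4.3.3: filterByExpr (minimum count 10, minimum total 15), TMM scaling, robust quasi-likelihood fit without covariates, Benjamini-Hochberg adjustment over 13667 genes and a threshold of 0.05. SE is the absolute log2 fold change over the root of F. Symbols were found for 20148 rows; lengths, GC contents and gene positions are from GENCODE release 29 (GRCh38). Alternatives used DESeq2 1.42.0, limma 3.58.1 and mgcv 1.9.3, whose smooths (6 basis functions) gave the GC and length offset. The code was tested on simulated data at a low dispersion and at that of these libraries, where it missed some of the smaller changes. Even the smaller changes simulated were larger than the fold fitted here for HSP90B1. Named genes are the 10 members, up to 3 called genes of each list with the smallest p, HSF1, HSPA8, HSPA5, HSPA9, NR3C1 and the 5 nearest profiles; 1 further called gene was singled out after its values were seen (FKBP8). The members and lists were chosen with earlier results of these data known. Figures were drawn with matplotlib 3.10.9.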

Additional observations from a re-analysis of the deposited data

How the results depend on the processing

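The 974 calls over all genes (275 higher, 699 lower) and the 2 among the HSP90 genes depended on the processing, and the 7 neighbouring lists together held 8. Total-count scaling gave 588 calls, 328 of them lower. The higher calls were 448 without a filter and 418 with a filter of 5 CPM, under which the neighbouring lists held 13. The GC and length correction left 0 calls in each of these counts, with or without the replicate block. DESeq2 called 2557 genes (1043 higher, 1514 lower), 4 HSP90 genes and 25 in the neighbouring lists. With 1 library left out the calls ranged from 173 to 2868 (36 to 1234 higher, 137 to 1634 lower), from 1 to 4 among the HSP90 genes and from 1 to 27 in the neighbouring lists; the lone library is assumed to vary like the other group. Fewest calls came without DMSO 1. Replicate numbers are shared between the groups but nothing in the labels pairs them. The deviations of same-numbered libraries had a weak negative correlation (r = -0.19 over genes). The replicate block gave 947 calls and kept 2 among the HSP90 genes; a crossed block, added after seeing the data, gave 1991 (724 higher, 1267 lower), 4 among the HSP90 genes and 18 in the neighbouring lists. Among the genes named here, those whose sign turned were not called: TRAP1 (-0.85 to 0.20 with 1 library left out), AHSA1 (0.12 with total counts, -0.32 to 0.11 with 1 library left out), CDC37 (-0.49 and -0.52 with the correction, -0.34 to 0.56 with 1 library left out), HSF1 (-0.34 and -0.37 with the correction, -0.52 to 0.58 with 1 library left out, -0.07 of it without DMSO 1), NR3C1 (0.14 in both corrected fits) and HSPA5 (-0.13 to 0.54 with 1 library left out). Of 107 genes in the neighbouring lists, 34 turned sign with the correction, none of them called. The HSP90AA1 share in DMSO was 47.3% with the mean length of coding transcripts, in place of 42.0%. By construction the corrections remove changes along GC content and length. Why the calls differed between settings, the corrected ones included, was not tested.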
